A study of Homo sapiens with 12 samples.

Results

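The genes described here are the MYC and MAX network: MYC, MYCN, MAX, MXD1, MXD3, MXD4, MXI1, MNT, MLX and MLXIP. Each gene was read from the probe sets that carry its symbol and no other in the platform annotation, and from those the probe set that was highest on average across the 12 arrays was taken. Of the 10 genes named, 9 had such a probe set and 8 passed the filter on low values, out of 19775 genes with a probe set of 1 symbol and 10561 genes past the filter. MXD4 has no value, because its 3 probe sets carry several symbols. MYCN was found but did not pass the filter.

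RNA came from RS4:11 and SEM-K2, established human cell lines of acute lymphoblastic leukaemia with the MLL-AF4 (KMT2A-AFF1) fusion, so every group carries that fusion and each line stands for 1 leukaemia. In each line, vehicle, obatoclax at its 72 h EC50 and obatoclax at 3 times that concentration (3xEC50) were compared after 6 h. Obatoclax is a small molecule made to antagonise the BCL2 family of antiapoptotic proteins. The sources used here do not give the concentrations, nor whether RS4:11 and SEM-K2 received equal ones. The 6 groups held 2 biologic replicates each, on Affymetrix U133 Plus 2 arrays. Nothing in the labels says that they were separate passages, so p-values here rest on the spread between these cultures only, which may be technical in part.

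Proteins of the network bind DNA as pairs through a basic helix-loop-helix leucine zipper. MAX is the shared partner: with MYC or MYCN it activates transcription at E-boxes, and with MXD1, MXD3, MXD4, MXI1 or MNT it recruits SIN3 corepressors and histone deacetylases to the same sites. MLX pairs with MXD1, MXD4, MNT and with MLXIP, also called MondoA, a glucose-sensing activator of TXNIP and ARRDC4. In acute leukaemia MYC is a driver of growth and metabolism, and its transcription depends on the elongation machinery that MLL fusion proteins recruit.

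The E-box that MYC-MAX pairs bind best is CACGTG, which reads the same on both strands. It was searched for in promoter windows of 300 bases, from 250 before to 50 after each start, taken from RefSeq on GRCh38.p14. It lay in at least 1 window of 2396 of 27305 genes, 8.775%, and in 7.256% of the 35116 windows. Of the network genes, 9 had a window and 3 held the box, MXD4, MNT and MLX. The gene without a window was MYC, so its promoter was not searched. Of the textbook genes that MYC activates, 18 of the 33 with a window held it, and of those that MYC represses, 0 of 8. The count of 0 of 8 is near the share over all genes, 8.775%. The windows of 60 bases below, in lower case with the box in capitals, show it in 2 network genes and in the 2 activated genes whose change had the smallest p at 3xEC50, 1 per line. MNT on the minus strand at chr17:2401221-2401280, 193 bases before the start, and MLX on the plus strand at chr17:42567023-42567082, 50 bases before it, lie upstream of the annotated genes. SLC7A5 on the minus strand at chr16:87869605-87869664 has the box 130 bases before its start. EIF4E on the minus strand at chr4:98929173-98929232 has the nearer of its 2 boxes 72 bases before its start.
MNT: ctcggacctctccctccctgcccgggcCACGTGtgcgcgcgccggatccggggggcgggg
MLX: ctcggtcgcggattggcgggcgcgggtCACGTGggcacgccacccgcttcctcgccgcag
SLC7A5: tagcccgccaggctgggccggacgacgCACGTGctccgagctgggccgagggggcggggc
EIF4E: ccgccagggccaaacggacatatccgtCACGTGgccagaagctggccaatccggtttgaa
A match describes the letters and does not show that a factor bound there.

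Array quality was alike in most measures. On each array 41.7% to 42.8% of probe sets lay above 4 on the log2 scale, the level used here as the filter, and replicates correlated at 0.977 to 0.991 over the genes tested. SEM-K2 3xEC50 replicate 2 stood apart in RNA integrity: its 3' control probe set of ACTB exceeded the 5' one by 1.97, against 0.87 to 1.23 on the other arrays. B cell precursor markers were above 4 on all arrays of a line for 7 of 7 genes in RS4:11 and 5 of 7 in SEM-K2, where RAG1 was below 4 throughout and DNTT on some arrays. Of the myeloid markers only CSF1R, and of the T and NK markers only NKG7, exceeded 4 on all arrays; both erythroid markers were below it, and COL1A1 and KRT8 exceeded it while COL1A2 and EPCAM did not.

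None of the 8 network genes passed the test in any of the 9 comparisons, by limma over all 10561 genes with Benjamini-Hochberg adjustment and a threshold of 0.05. That fit left out the replicate number. With the number as a block in limma, MXI1 passed between the lines in vehicle (adjusted p = 0.0164), as did 26.8% of all genes. No other comparison then gave a call among the network genes. Without the block, the share of all genes that passed was 0% in RS4:11 at EC50 and 0% at 3xEC50. It was 0.170% in SEM-K2 at EC50, 0.824% in SEM-K2 at 3xEC50 and 19.6% between the lines in vehicle, so a count of 0 among 8 genes is near what the share over all genes gives for each dose. At an unadjusted p under 0.05, the counts of network genes were 0 and 0 in RS4:11 (EC50, then 3xEC50), 1 and 2 in SEM-K2 and 1 between the lines. Of all 10561 genes, 444 and 518 had such a p in RS4:11, 578 and 1233 in SEM-K2 and 3190 between the lines. Counted by whether both treated arrays lay beyond both vehicle arrays, 3 of 8 did so in each of the 4 comparisons with vehicle. The share of all genes was 30.5% (RS4:11 EC50), 34.3% (RS4:11 3xEC50), 33.6% (SEM-K2 EC50) and 36.6% (SEM-K2 3xEC50). In bulk RNA, fewer cells with a transcript and less of it per cell cannot be told apart.

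**Figure D1:**
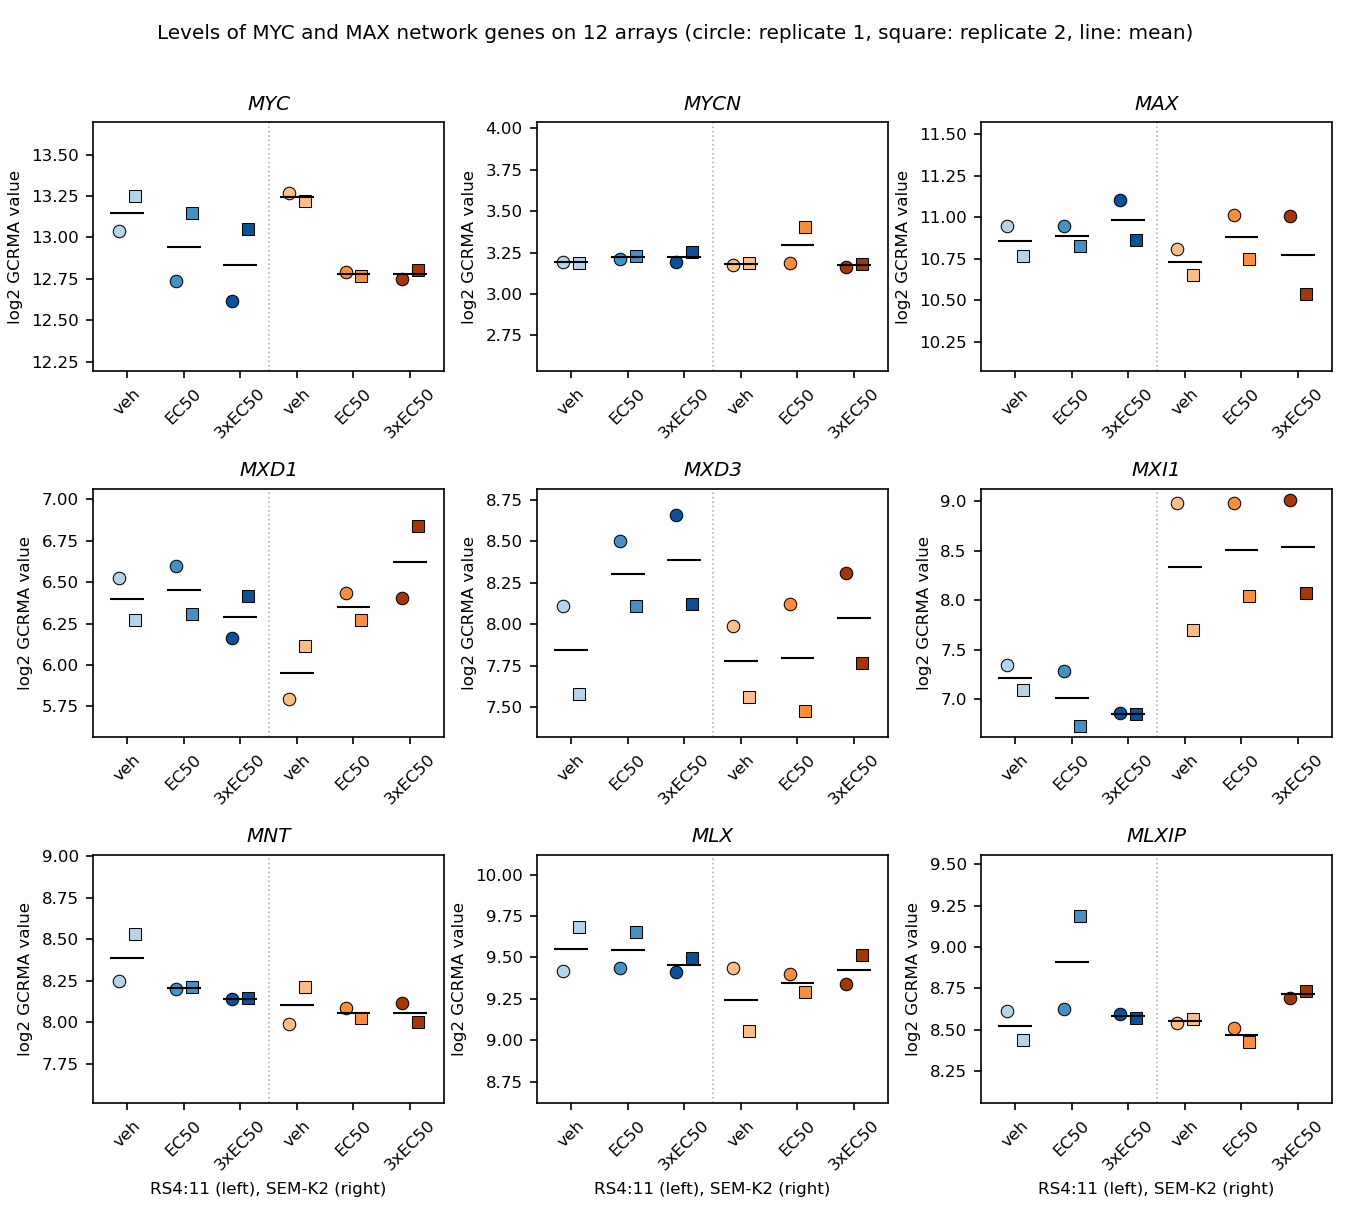
Deposited log2 GCRMA values (vertical axis, 1 panel per gene, each with its own range) of 9 network genes in the 6 groups; circles are replicate 1, squares replicate 2 and lines the group mean. MYC sits at 13.22 and 13.27 in SEM-K2 vehicle and between 12.75 and 12.80 on the 4 obatoclax arrays of that line, and MXI1 is higher on all 6 SEM-K2 arrays than on any RS4:11 array.

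MYC, the network's main activator, was abundant in both lines: its probe set's mean over 12 arrays was 12.96 on the log2 scale, at percentile 97.8 of the genes tested. In SEM-K2, the vehicle arrays read 13.27 and 13.22, the EC50 arrays 12.79 and 12.77, and the 3xEC50 arrays 12.75 and 12.80. Both vehicle arrays thus lay above all 4 obatoclax arrays, with replicates no more than 0.06 apart. The difference from vehicle was -0.46 ± 0.19 (SE) at EC50 (limma adjusted p = 0.853). At 3xEC50 it was -0.47 ± 0.19, or 0.723 of the vehicle level (95% interval -0.90 to -0.04 on the log2 scale; limma adjusted p = 0.378). Neither passed the test over all genes; the alternatives at 3xEC50 gave adjusted p between 0.0973 and 0.930 and differences of -0.55 to -0.44. The doses read alike in SEM-K2, where 3xEC50 minus EC50 was -0.0040 with an interval of -0.43 to 0.43.

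In RS4:11, MYC read 13.04 and 13.25 in vehicle, 12.74 and 13.15 at EC50 and 12.62 and 13.05 at 3xEC50. Here replicate 2 was above replicate 1 in every group, and the treated range overlapped the vehicle range at both doses. Within each replicate number, though, the EC50 array lay below the vehicle array and the 3xEC50 array below the EC50 array. The differences were -0.20 ± 0.19 at EC50 and -0.31 ± 0.19 at 3xEC50 (limma adjusted p = 1.00 and 0.999), and with 1 array left out the latter ran from -0.53 to -0.092. By group mean the order ran from SEM-K2 vehicle (13.24) and RS4:11 vehicle (13.15) through RS4:11 EC50 (12.94) and 3xEC50 (12.84) to SEM-K2 EC50 and 3xEC50 (both 12.78). No 2 neighbours in that order differed beyond the spread of their replicates. The response of SEM-K2 minus that of RS4:11 was -0.26 at EC50 (95% interval -0.87 to 0.34) and -0.16 at 3xEC50 (-0.77 to 0.45), so these arrays do not separate the lines' responses.

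MYCN, the paralogue that substitutes for MYC in neural tissues and in some leukaemias, was not above the filter on any array. Its chosen probe set read 3.16 to 3.41 over the 12 arrays, and its other 9 probe sets were also below 4 on all of them. It was therefore not tested, and these values say only that it lay under the filter.

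MAX, the obligate partner of MYC, read 10.95 and 10.77 in RS4:11 vehicle, 10.95 and 10.82 at EC50 and 11.11 and 10.86 at 3xEC50. In SEM-K2 it read 10.81 and 10.65 in vehicle, 11.01 and 10.75 at EC50 and 11.01 and 10.54 at 3xEC50. Treated and vehicle arrays overlapped in every comparison, and replicate 1 was above replicate 2 in 6 of 6 groups, by 0.13 to 0.47. The differences from vehicle were 0.03 and 0.13 in RS4:11 and 0.15 and 0.04 in SEM-K2 (EC50, then 3xEC50), each with an interval reaching from below 0 to no more than 0.59. Its other probe sets did not all follow. Probe set 210734_x_at read 6.68 on SEM-K2 3xEC50 replicate 2 and 8.40 to 9.17 on the other 11 arrays. Probe set 208403_x_at read 6.24 on that array and 7.17 to 7.89 on the others. That array is the one with the ACTB difference of 1.97; the part of RNA integrity in this result was not tested.

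**Figure D2:**
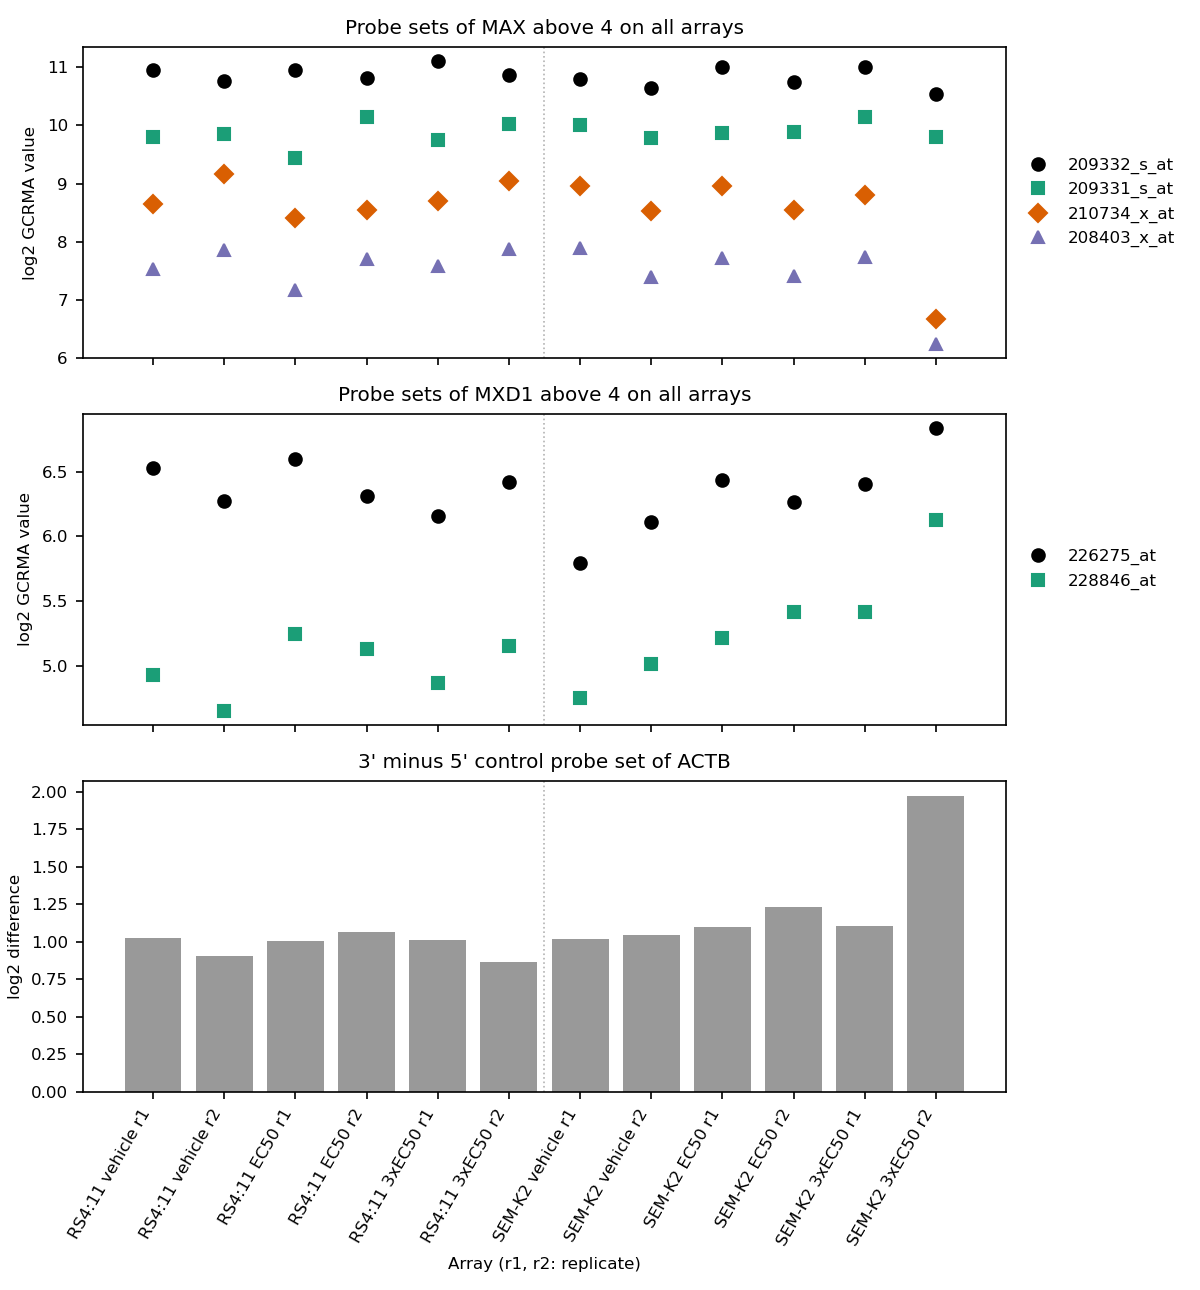
Log2 GCRMA values of the probe sets of MAX (top) and MXD1 (middle) that exceed 4 on all arrays, by array, with the ACTB control at the 3' end minus that at the 5' end, in log2 units, as bars (bottom). On SEM-K2 3xEC50 replicate 2, 2 MAX probe sets read 6.68 and 6.24, the ACTB difference is 1.97, and both MXD1 probe sets are at their highest, 6.84 and 6.12.

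MXD1, a repressor that competes with MYC for MAX and is known to rise when blood cells differentiate, had the largest difference of the network at 3xEC50 in SEM-K2. There it read 5.79 and 6.11 in vehicle, 6.43 and 6.27 at EC50 and 6.40 and 6.84 at 3xEC50. All 4 treated arrays lay above both vehicle arrays. The difference was 0.40 ± 0.21 at EC50 (95% interval -0.07 to 0.87, limma adjusted p = 0.989). At 3xEC50 it was 0.67 ± 0.21, or 1.59-fold (interval 0.20 to 1.13; limma adjusted p = 0.252, 0.115 to 0.768 over the alternatives), which did not pass over all genes. A second probe set, 228846_at, was not used in the test and read 4.75 and 5.01 in vehicle, 5.22 and 5.42 at EC50 and 5.42 and 6.12 at 3xEC50. It too had every treated array above both vehicle arrays. Without SEM-K2 3xEC50 replicate 2, the array with the ACTB difference of 1.97, the 3xEC50 difference of the chosen probe set was 0.45. Without SEM-K2 3xEC50 replicate 1 it was 0.88.

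In RS4:11 MXD1 read 6.53 and 6.27 in vehicle, 6.60 and 6.31 at EC50 and 6.16 and 6.42 at 3xEC50, with overlap throughout. The differences were 0.05 ± 0.21 and -0.11 ± 0.21 (limma adjusted p = 1.00 and 0.999). At 3xEC50 the response of SEM-K2 minus that of RS4:11 was 0.78 ± 0.29 (interval 0.12 to 1.44; limma adjusted p = 1.00), again short of the threshold. SEM-K2 vehicle had the lowest group mean, 5.95, and SEM-K2 3xEC50 the highest, 6.62, with the 4 other groups between 6.29 and 6.45 and within each other's spread. The second probe set, 228846_at, read 4.93 and 4.65 in RS4:11 vehicle, 5.25 and 5.13 at EC50 and 4.87 and 5.16 at 3xEC50. By it both RS4:11 EC50 arrays lay above both vehicle arrays, a difference of 0.40, against 0.43 in SEM-K2. Its response difference was 0.04 at EC50 and 0.67 at 3xEC50. In vehicle it was 0.09 higher in SEM-K2 than in RS4:11, so that order depends on the probe set.

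MXD3, a repressor of the same family expressed in dividing B cell precursors, read 8.11 and 7.58 in RS4:11 vehicle, 8.50 and 8.11 at EC50 and 8.66 and 8.12 at 3xEC50. Replicate 1 was above replicate 2 in 6 of 6 groups, by 0.39 to 0.64. Within each replicate number the treated arrays of RS4:11 were higher than their vehicle array; across numbers the lowest treated array and the highest vehicle array were nearly equal at 8.11. The differences were 0.46 ± 0.32 at EC50 and 0.55 ± 0.32 at 3xEC50 (limma adjusted p = 0.999 for the latter). With the replicate number as a block in limma, the SE of both was 0.12 and the unadjusted p 0.0045 and 0.0016. Adjusted over all genes these were 0.399 and 0.170, so neither passed. In SEM-K2 MXD3 read 7.99 and 7.56 in vehicle, 8.12 and 7.48 at EC50 and 8.31 and 7.77 at 3xEC50. Those groups overlapped, with differences of 0.02 ± 0.32 and 0.26 ± 0.32 (limma adjusted p = 1.00 and 0.817).

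MXI1, also called MXD2, is a repressor whose gene responds to hypoxia-inducible factors. It read 7.35 and 7.09 in RS4:11 vehicle, 7.28 and 6.73 at EC50 and 6.86 and 6.85 at 3xEC50. In SEM-K2 it read 8.99 and 7.70 in vehicle, 8.98 and 8.04 at EC50 and 9.01 and 8.07 at 3xEC50. The lowest SEM-K2 array was above the highest RS4:11 array, while within SEM-K2 the replicates stood 0.94 to 1.29 apart. Obatoclax differences were -0.21 ± 0.47 and -0.37 ± 0.47 in RS4:11 and 0.17 ± 0.47 and 0.20 ± 0.47 in SEM-K2, with limma adjusted p of 0.921 or more. At 3xEC50 in RS4:11 both arrays lay below both vehicle arrays. Intervals for this gene reached more than 0.8 either side of 0 except in RS4:11 at 3xEC50, where the upper bound was 0.69.

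MNT, the repressor found in resting and dividing cells alike, read 8.25 and 8.53 in RS4:11 vehicle, 8.20 and 8.21 at EC50 and 8.14 and 8.14 at 3xEC50. Both dose groups of RS4:11 were below both vehicle arrays, by means of -0.18 ± 0.15 and -0.25 ± 0.15 (limma adjusted p = 1.00 and 0.999). In SEM-K2 it read 7.99 and 8.22 in vehicle, 8.09 and 8.03 at EC50 and 8.11 and 8.00 at 3xEC50. The treated arrays there lay inside the vehicle range, with differences of -0.05 and -0.04 and intervals from -0.38 to 0.29.

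MLX, the partner of MondoA, read 9.42 and 9.69 in RS4:11 vehicle, 9.44 and 9.65 at EC50 and 9.41 and 9.50 at 3xEC50. In SEM-K2 it read 9.44 and 9.06 in vehicle, 9.40 and 9.29 at EC50 and 9.34 and 9.51 at 3xEC50. Treated and vehicle arrays overlapped in all 4 comparisons, and the differences ran from -0.10 to 0.18. MLXIP, which encodes MondoA itself, read 8.61 and 8.44 in RS4:11 vehicle, 8.63 and 9.19 at EC50 and 8.59 and 8.57 at 3xEC50. The array at 9.19 stood alone, and the second probe set of MLXIP, 225157_at, also had its highest value there, 9.00. The difference at EC50 was 0.38 ± 0.18 (limma adjusted p = 1.00), and averaging the 4 probe sets gave -0.050. That average includes 211789_s_at and 1554886_a_at, whose means of 3.01 and 2.88 lie under the filter level. Of the 4, only 211789_s_at was negative, at -1.01, with RS4:11 vehicle replicate 2 at 4.38. The difference by 225157_at was 0.23. In SEM-K2 MLXIP read 8.54 and 8.56 in vehicle, 8.51 and 8.43 at EC50 and 8.69 and 8.74 at 3xEC50. Its SEM-K2 groups did not overlap, but their means differed from vehicle by -0.08 ± 0.18 and 0.16 ± 0.18.

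**Figure D3:**
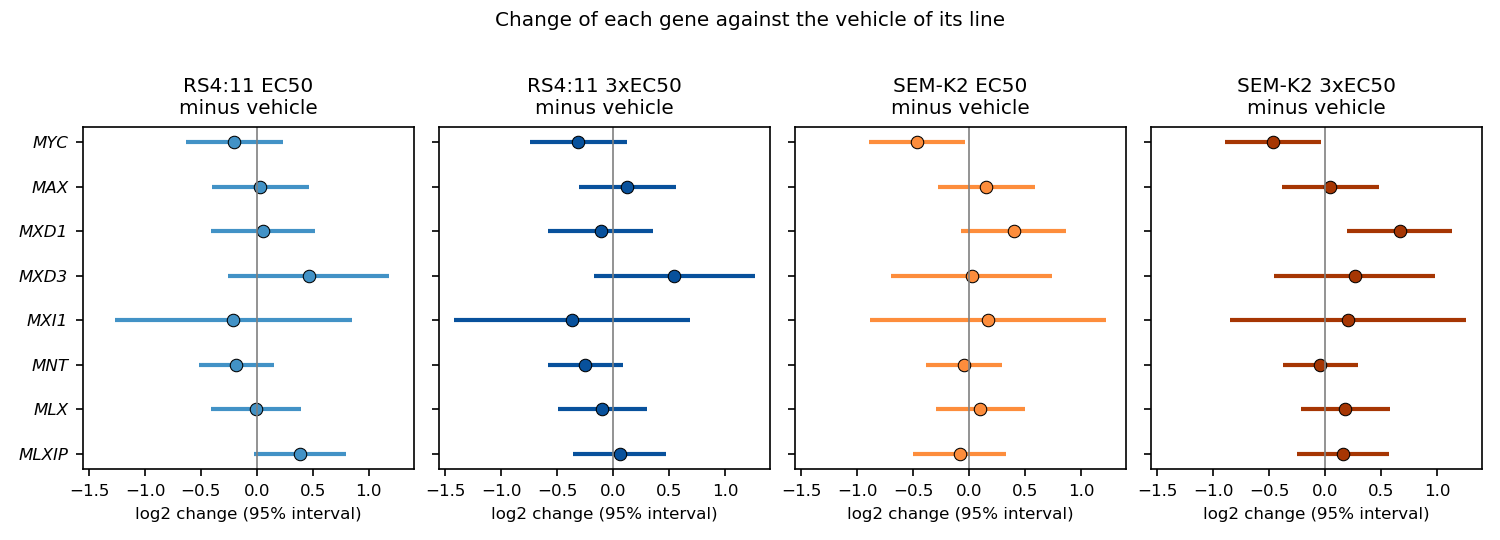
Log2 change against vehicle (horizontal axis) of the 8 tested network genes in each line and dose; points are limma estimates and lines their 95% intervals, before adjustment. The intervals of MYC at both SEM-K2 doses (-0.89 to -0.03 and -0.90 to -0.04) and of MXD1 at SEM-K2 3xEC50 (0.20 to 1.13) leave out 0, and no gene passed after adjustment over all genes.

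Between the lines in vehicle, 1 of 8 network genes had both SEM-K2 arrays above both RS4:11 arrays (MXI1) and 2 had them below (MXD1 and MNT), where 55.7% of all genes were apart in either direction. MXI1 was 1.12 ± 0.47 higher in SEM-K2, 2.18-fold (interval 0.07 to 2.18; limma adjusted p = 0.139). With the replicate number as a block it passed, at adjusted p = 0.0164, and so became the single network gene called, where 26.8% of all genes were. The value rested on the SEM-K2 vehicle arrays: without replicate 2 it was 1.77 (adjusted p = 0.0408) and without replicate 1 it was 0.48 (adjusted p = 0.598). MXD1 was lower by -0.45 ± 0.21 and MNT by -0.29 ± 0.15 (limma adjusted p = 0.187 and 0.246). By its second probe set, 228846_at, MXD1 was 0.09 higher in SEM-K2. The difference in MYC was 0.10 ± 0.19, with an interval from -0.33 to 0.53. MAX (-0.13), MXD3 (-0.07), MLX (-0.31) and MLXIP (0.03) had overlapping arrays and limma adjusted p of 0.296 or more.

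From EC50 to 3xEC50, 0 of 8 network genes passed the limma test in either line, as did 0% of all genes in RS4:11 and 0% in SEM-K2; 0 of 8 had an unadjusted p under 0.05 in either. Of all 10561 genes, 85 in RS4:11 and 234 in SEM-K2 had such an unadjusted p. The differences of the network genes ran from -0.33 (MLXIP) to 0.10 (MAX) in RS4:11 and from -0.11 (MAX) to 0.27 (MXD1) in SEM-K2. The response of SEM-K2 minus that of RS4:11 also gave 0 network genes by limma, against 0.00947% of all genes at EC50 and 0.0379% at 3xEC50. At an unadjusted p under 0.05 the counts were 0 at EC50 and 1 at 3xEC50, the latter being MXD1. Of all 10561 genes, 185 and 390 had such a p. At EC50 the difference between responses ran from -0.47 (MLXIP, interval -1.05 to 0.12) to 0.38 (MXI1, interval -1.11 to 1.88). At 3xEC50 it ran from -0.28 (MXD3, interval -1.30 to 0.73) to the 0.78 of MXD1.

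Textbook genes that MYC activates, which serve the nucleolus, translation, nucleotide synthesis, glycolysis and the cell cycle, were taken as a list of 39, of which 33 were tested. None passed the limma test in any comparison with vehicle. In RS4:11, 28 of 33 had a value below 0 at EC50 (median -0.14) and 29 of 33 at 3xEC50 (median -0.18). Over all genes, 55.7% and 54.0% were above 0 there, with medians of 0.02 and 0.02. In SEM-K2, 20 of 33 were below 0 at EC50 (median -0.08) and 21 of 33 at 3xEC50 (median -0.11). There 61.9% and 58.6% of all genes were above 0, with medians of 0.05 and 0.06. Both doses share their vehicle arrays, so the 2 counts of a line are not independent. Leaving out 1 array or changing the processing gave 22 to 29 and 20 to 31 of the activated genes below 0 in RS4:11, and 17 to 26 and 16 to 25 in SEM-K2. Without SEM-K2 3xEC50 replicate 2, the array with the ACTB difference of 1.97, the count at SEM-K2 3xEC50 was 22.

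SLC7A5, the leucine transporter LAT1, had the smallest p of these genes in RS4:11 at 3xEC50. It read 11.02 and 11.04 in vehicle, 10.39 and 9.94 at EC50 and 10.26 and 9.75 at 3xEC50, so all 4 treated arrays were below both vehicle arrays. The difference at 3xEC50 was -1.03 ± 0.23 (limma adjusted p = 0.423). In SEM-K2 it read 10.82 and 10.70 in vehicle, 10.66 and 10.44 at EC50 and 10.69 and 10.30 at 3xEC50. There too all 4 treated arrays were below both vehicle arrays, with the nearest pair 10.69 and 10.70, and the difference at 3xEC50 was -0.26. The response difference at 3xEC50 was 0.76 (limma adjusted p = 1.00). EIF4E, the cap-binding translation factor, had the smallest p of the list in SEM-K2 at 3xEC50. It read 10.00 and 10.13 in vehicle, 9.91 and 10.07 at EC50 and 9.64 and 9.26 at 3xEC50, the last being the array with the ACTB difference of 1.97. Its difference at 3xEC50 was -0.62 ± 0.16 (limma adjusted p = 0.191), against -0.13 in RS4:11.

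**Figure D4:**
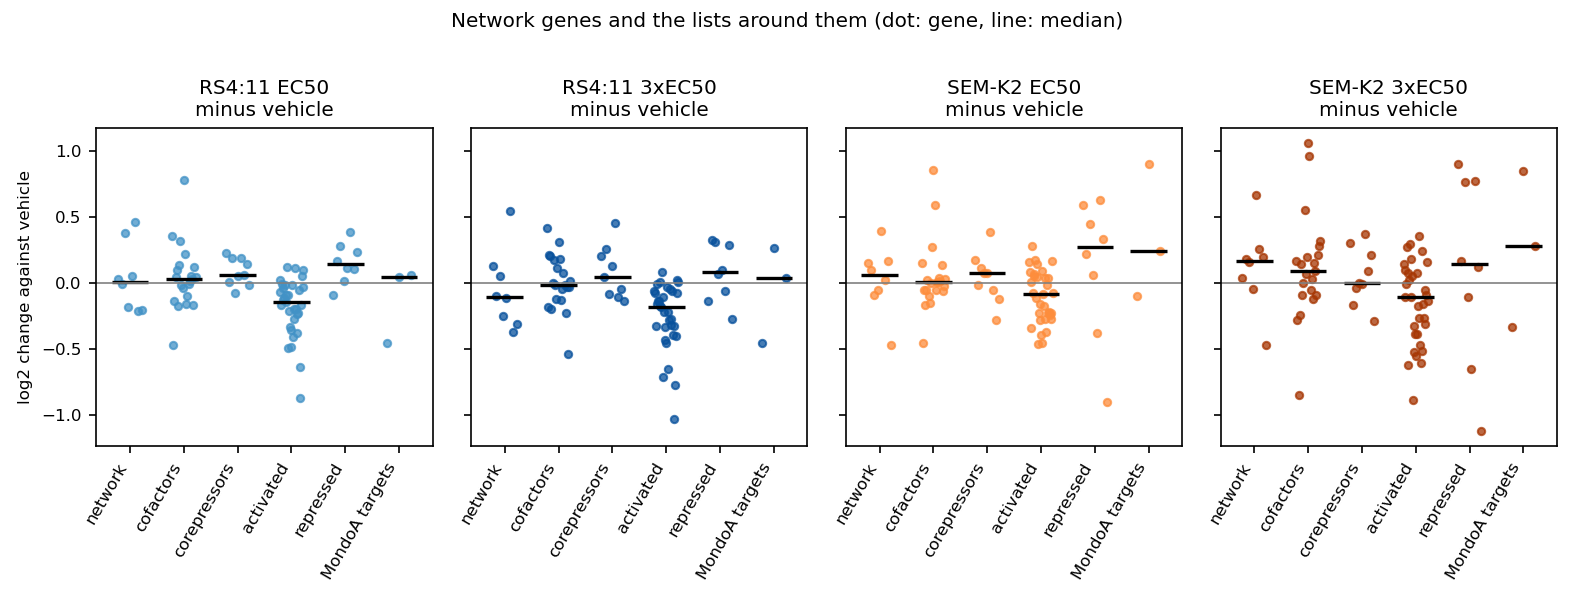
Log2 change against vehicle (vertical axis) of each tested gene of the network and of the lists around it, by line and dose; dots are genes and black lines list medians. In RS4:11 the dots of the genes activated by MYC lie mostly below 0, 28 and 29 of 33, while the medians of the other lists stay between -0.10 and 0.14.

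Textbook genes that MYC represses, 8 of 10 tested, gave 0 calls against vehicle by limma. Their values were above 0 for 7 of 8 and 5 of 8 genes in RS4:11 and 6 of 8 and 5 of 8 in SEM-K2, with medians of 0.14, 0.09, 0.28 and 0.14. Over all genes the shares above 0 were 55.7%, 54.0%, 61.9% and 58.6%, so the counts of 5 of 8 are near them. CDKN1A, the cell cycle inhibitor p21, read 10.15 and 9.28 in SEM-K2 vehicle, 10.50 and 10.12 at EC50 and 10.68 and 10.56 at 3xEC50. The 3xEC50 arrays were above both vehicle arrays, by a mean of 0.90 ± 0.26 (limma adjusted p = 0.224), and in RS4:11 the difference was -0.13. The CDKN1A difference depended on the vehicle array: it was 1.34 without SEM-K2 vehicle replicate 1, where it passed (adjusted p = 0.0296), and 0.47 without replicate 2 (0.877). With a replicate block within each line it passed (0.0484). PDGFRB, a growth factor receptor, read 7.99 and 7.26 in SEM-K2 vehicle and 6.99 and 6.02 at 3xEC50, with each replicate number lower by about the same amount. Its difference of -1.12 had an adjusted p of 0.350 by limma and of 0.0486 with the replicate block, under which 2.08% of all genes passed in that comparison. NDRG2, a stress-response gene, had the smallest p of this list in RS4:11 at 3xEC50 (limma adjusted p = 0.999). It read 3.88 and 3.76 in vehicle and 4.33 and 3.90 at that dose, so only 1 of these arrays was above 4 and no size is given.

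Of the cofactors of MYC and the enzymes that act on its stability, 21 of 24 were tested and 0 passed against vehicle by limma. Their medians were 0.03 and -0.01 in RS4:11 and 0.01 and 0.09 in SEM-K2. PIM2, a kinase reported to stabilise MYC, read 4.89 and 4.15 in SEM-K2 vehicle, 5.20 and 5.03 at EC50 and 5.35 and 5.63 at 3xEC50. All 4 treated arrays were above both vehicle arrays, and the 3xEC50 difference was 0.96 ± 0.23 (limma adjusted p = 0.135), against 0.19 in RS4:11. The PIM2 difference was 1.33 without SEM-K2 vehicle replicate 1 and 0.60 without replicate 2. PIM2 lay near the filter of 4 in vehicle, also in RS4:11 (4.65 and 4.46), so its sizes are uncertain. USP36, a nucleolar deubiquitinase of MYC, had the smallest p of the cofactors in RS4:11 at 3xEC50, a difference of -0.53 ± 0.37 (limma adjusted p = 0.999), or -0.28 without RS4:11 vehicle replicate 2. Its arrays read 8.04 and 8.54 in vehicle and 7.66 and 7.85 at that dose.

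The SIN3 and NCOR corepressors that MXD and MNT proteins recruit were tested for 9 of 11 genes, with 0 calls against vehicle by limma and medians between 0.00 and 0.08. HDAC1, the histone deacetylase of SIN3 complexes, had the smallest p of them at 3xEC50 in both lines. It read 12.32 and 12.22 in RS4:11 vehicle and 12.44 and 12.52 at 3xEC50, and 12.74 and 12.63 in SEM-K2 vehicle and 13.00 and 12.99 at 3xEC50. The differences were 0.21 ± 0.13 and 0.31 ± 0.13 (limma adjusted p = 0.999 and 0.417). Among the 3 other factors of the network, MYCL and MLXIPL did not pass the filter. MGA, a large scaffold that pairs with MAX, differed by 0.07 and 0.35 at 3xEC50 in RS4:11 and SEM-K2 (limma adjusted p = 0.999 and 0.659); the mean of its probe sets gave -0.34 in SEM-K2, so its direction there depends on the probe set. Without SEM-K2 3xEC50 replicate 2, the array with the ACTB difference of 1.97, the MGA difference was 0.033.

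The targets of MondoA and MLX gave differences of both signs in each line at 3xEC50. TXNIP, an inhibitor of thioredoxin and of glucose uptake, read 9.95 and 9.24 in SEM-K2 vehicle and 9.90 and 9.85 at 3xEC50, and differed by 0.04 and 0.28 at 3xEC50 in RS4:11 and SEM-K2. ARRDC4, a related arrestin, read 6.50 and 5.63 in RS4:11 vehicle and 5.61 to 5.62 on all 4 treated arrays, so its difference of -0.45 at 3xEC50 rests on 1 vehicle array. In SEM-K2 it read 5.66 and 5.75 in vehicle and 5.37 and 5.36 at 3xEC50, a difference of -0.33. KLF10, a zinc finger repressor, read 7.79 and 7.04 in SEM-K2 vehicle, 8.52 and 8.12 at EC50 and 8.66 and 7.87 at 3xEC50, above both vehicle arrays in all 4. Its differences were 0.90 and 0.85 in SEM-K2 and 0.05 and 0.27 in RS4:11, none past the limma threshold (lowest adjusted p = 0.450). Without SEM-K2 vehicle replicate 2 the KLF10 differences were 0.53 and 0.48 in SEM-K2, and without SEM-K2 3xEC50 replicate 1 the latter was 0.46.

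Around the network, genes passed the test between the lines where none had against vehicle. In vehicle, limma called 3 of 21 cofactors higher in SEM-K2, 1 of 9 corepressors lower, 1 of 33 activated genes higher, and 4 of 8 repressed genes higher and 1 lower; these genes were picked out after their values were seen. Over all genes 19.6% were called, so the counts of cofactors, corepressors and activated genes are near or under that share. With the replicate block, where 26.8% of all genes were called, the activated genes called higher were 4 of 33 (PPAT with HK2, ODC1 and TERT), and HDAC1 was added as higher and KLF10 as lower. The repressed genes were CEBPA, a myeloid differentiation factor (3.57 ± 0.42 higher, adjusted p = 2.39e-04), GAS1, a growth arrest gene (2.21, adjusted p = 0.00130), NDRG1, a hypoxia-induced gene (2.59, adjusted p = 0.0197), and PDGFRB (1.50, adjusted p = 0.0354). GADD45A, a DNA damage response gene, was the lower one (-1.52, adjusted p = 6.87e-05). CEBPA read 6.07 and 6.13 in RS4:11 vehicle and 10.20 and 9.15 in SEM-K2 vehicle. Myeloid markers other than CSF1R were below 4 in both lines, as given above.

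Of the cofactors, the MYC-degrading kinase GSK3B (0.90, limma adjusted p = 0.00166), the phosphatase inhibitor CIP2A (0.80, adjusted p = 0.00733) and the kinase PIM1 (adjusted p = 0.0421) were higher in SEM-K2. PIM1 read 5.19 and 4.59 in SEM-K2 vehicle and 3.45 and 3.57 in RS4:11 vehicle; the latter are below the filter, so no size is given for its difference. SAP18, a SIN3 subunit, was lower (-1.27, adjusted p = 0.00266), and PPAT, an enzyme of purine synthesis, was higher (1.06, adjusted p = 0.0169). CEBPA, GADD45A, GAS1, GSK3B and SAP18 stayed past the threshold without any 1 of the 12 arrays. CIP2A did not pass without RS4:11 vehicle replicate 2 (adjusted p = 0.0575). PPAT did not pass without RS4:11 vehicle replicate 1 (0.0970) or without SEM-K2 vehicle replicate 1 (0.0790) or 2 (0.0612). NDRG1 did not pass without RS4:11 vehicle replicate 1 (0.0730) or 2 (0.0886) or SEM-K2 vehicle replicate 1 (0.130). PIM1 did not pass when any of 8 arrays was left out singly, with adjusted p up to 0.210, nor PDGFRB for any of 5, with adjusted p up to 0.192. With no filter on low values PIM1, NDRG1, PDGFRB and PPAT did not pass (adjusted p = 0.149, 0.0969, 0.134 and 0.0608), and with all probe sets of a gene averaged GSK3B and PPAT did not (0.0573 and 0.193). With only the vehicle arrays in the fit NDRG1 did not pass (0.0525).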

How the data were processed

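Total RNA of 12 samples was hybridised as labelled cRNA, 1 array each. The authors' deposited values were made with GCRMA, per the submitters' processing notes, which give no version and no scale; they were read as log2 because they ran from 0.64 to 16.22. GCRMA corrects background by probe sequence and normalises by quantiles, so a change shared by most genes would not show. Scanner files were not used here. Of 54675 probe sets, 41097 had 1 symbol, 1801 several and 11777 none. A gene was tested where its probe set exceeded 4 on at least 2 arrays. limma 3.58.1 (lmFit, eBayes) in R 4.3.3 fitted 6 group means to the deposited log2 values, with Benjamini-Hochberg adjustment over 10561 genes per comparison, and was tested on simulated data. Arrays have no depth; their number limits the precision.

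Replicate numbers come from the labels. Replicate differences correlated over genes in all 15 pairs of groups, at 0.350 to 0.601 within a line and 0.191 to 0.402 between lines, so the numbers pair the samples, and a fit with them as a block was made too. Other alternatives were the mean of probe sets, no _x_at probe sets, other filters, other eBayes settings, array medians subtracted, only the groups compared, and each array left out; the counts of activated genes below 0 were recomputed under these after seeing the data.

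Network members and gene lists were chosen with earlier results of these data known. Named are all members, the MondoA and MLX targets and the 3 genes most like MYC. Of the other lists, genes called against vehicle are named, or else the gene with the smallest p at 3xEC50 in each line. Also named are the list genes called between the lines in vehicle, with or without the replicate block. PDGFRB in SEM-K2 at 3xEC50 is named for its call with the block. These further genes were picked out after their values were seen.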

Additional observations from a re-analysis of the deposited data

How the results depend on the processing

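Of the 9 counts of network genes called, 8 stayed at 0 under every alternative. The count between the lines in vehicle went from 0 to 1 (MXI1) with the replicate block and to 1 with the replicate block within each line; leaving out 1 array gave 0 to 1. Beyond MXI1, the list genes added in the vehicle comparison and PDGFRB, all given in the report, the replicate block changed no other call; with the block within each line CDKN1A passed in SEM-K2 at 3xEC50 (adjusted p = 0.0484). Over all genes, the count in SEM-K2 at 3xEC50 was 87 and became 44 with the mean of probe sets, 220 with the replicate block, 299 with the block within each line, 0 with only the groups compared (limma; 1233 genes had an unadjusted p under 0.05 in the fit of all groups) and 14 to 169 without 1 array. In SEM-K2 at EC50 the count was 18 and became 11 with the mean of probe sets, 8 with no filter, 46 with the block, 70 with the block within each line, 1 with only the groups compared and 3 to 17 without 1 array. Between the lines, 2074 became 1319 with only the groups compared; in RS4:11 the alternatives gave 0 to 3 at EC50 and 0 to 1 at 3xEC50. For 3xEC50 minus EC50 they gave 0 to 2 in RS4:11 and 0 to 36 in SEM-K2, the 36 without SEM-K2 3xEC50 replicate 1. For the response differences they gave 1 to 4 at EC50 and 1 to 20 at 3xEC50.

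Small differences, none past the threshold, changed sign under some settings, and the cause was not tested. When all probe sets of a gene were averaged they became -0.23 (MLXIP) between the lines in vehicle, -0.14 (MAX), 0.0083 (MLX), -0.050 (MLXIP) and -0.034 (TXNIP) in RS4:11 at EC50, and -0.016 (MLXIP) and 0.042 (MXD1) in RS4:11 at 3xEC50. In SEM-K2 at 3xEC50 that mean gave -0.24 (MAX), -0.34 (MGA) and -0.057 (MLX), and from EC50 to 3xEC50 it gave 0.034 (MLXIP, RS4:11) and -0.078 (MLX, SEM-K2). For MAX, MXD1, MLX and MLXIP the mean includes probe sets that were not above 4 on any array. With array medians subtracted they became -0.0075 (MAX, RS4:11 at EC50), -0.044 (MXD3, SEM-K2 at EC50), -0.044 (MAX, SEM-K2 at 3xEC50) and -0.017 (MNT, SEM-K2 from EC50 to 3xEC50). Differences that took both signs when 1 array was left out are given as ranges. Between the lines in vehicle they were MYC (-0.0049 to 0.20), MXD3 (-0.33 to 0.20) and MLXIP (-0.059 to 0.12). In RS4:11 at EC50 they were MYC (-0.41 to 0.0046), MAX (-0.060 to 0.12), MXD1 (-0.089 to 0.20), MXI1 (-0.49 to 0.066), MLX (-0.14 to 0.13), TXNIP (-0.019 to 0.15) and KLF10 (-0.36 to 0.46). In RS4:11 at 3xEC50 they were MXD1 (-0.24 to 0.017), MLX (-0.23 to 0.037), MLXIP (-0.029 to 0.15), MGA (-0.15 to 0.29), TXNIP (-0.064 to 0.15) and KLF10 (-0.14 to 0.67). In SEM-K2 at EC50 they were MXD3 (-0.30 to 0.35), MXI1 (-0.47 to 0.82), MNT (-0.16 to 0.065), MLX (-0.091 to 0.29) and TXNIP (-0.11 to 0.60). In SEM-K2 at 3xEC50 they were MAX (-0.19 to 0.28), MXD3 (-0.0068 to 0.53), MXI1 (-0.44 to 0.85), MNT (-0.16 to 0.068), MLX (-0.0099 to 0.37) and TXNIP (-0.075 to 0.64). From EC50 to 3xEC50 in RS4:11 they were MYC (-0.33 to 0.11), MAX (-0.024 to 0.22), MXD3 (-0.19 to 0.36), MXI1 (-0.43 to 0.12) and MLX (-0.20 to 0.020). From EC50 to 3xEC50 in SEM-K2 they were MYC (-0.033 to 0.025), MAX (-0.34 to 0.13), MXD3 (-0.083 to 0.56), MXI1 (-0.44 to 0.50), MNT (-0.054 to 0.059) and MLX (-0.0067 to 0.17). For the EC50 response difference they were MAX (-0.0090 to 0.25), MXI1 (-0.26 to 1.03), MNT (-0.0074 to 0.28) and MLX (-0.082 to 0.30). For the 3xEC50 response difference they were MYC (-0.38 to 0.058), MAX (-0.32 to 0.15) and MXI1 (-0.079 to 1.21).

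With 2 arrays per group, intervals of the network genes were wide, MYCN and MXD4 gave no test, and values near 4 have no reliable order.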

Other observations

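Across the 12 arrays, after each line's mean was subtracted, the network genes whose values ran most alike were MAX and MXD3 (Pearson r = 0.78), followed by MAX and MXI1 (0.66) and MXD3 and MXI1 (0.53). The most opposed were MYC and MXD3 (-0.61), MXD3 and MNT (-0.56), MYC and MAX (-0.52) and MYC and MXD1 (-0.49). These points share replicate numbers and doses within a line: MAX, MXD3 and MXI1 were each higher in replicate 1 than in replicate 2 in 6 of 6 groups. No p is attached to any of them.

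By the same measure over 12 arrays, the genes most like MYC were NARS2, a mitochondrial asparaginyl-tRNA synthetase (r = 0.936), ERBB2, a receptor kinase (0.931), and EIF4G1, a scaffold of the translation initiation complex (0.929).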
